A study of Homo sapiens with 5 samples.

Results

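The neuronal leucine-rich, contactin and neurexin adhesion genes are 47 genes that were chosen by name: LRRN1 to LRRN4, FLRT1 to FLRT3, SLITRK1 to SLITRK6, LRRTM1 to LRRTM4, LINGO1 to LINGO4, the contactins CNTN1 to CNTN6, the contactin-associated genes CNTNAP1 to CNTNAP5, NRXN2 and NRXN3, NLGN1 to NLGN3, NCAM1 and NCAM2, the L1 family genes NRCAM, NFASC and CHL1, CADM1 to CADM4, and THY1. They are 47 of the 58780 named genes of the annotation, and the rule that names them uses no measured value, though earlier results of these data were known when they were chosen. The names of 41 were in the table of all genes deposited with the series, and the rest, which that table does not list, were matched through GENCODE release 29. CNTNAP2 has a main entry and a second one on a patch sequence, so 48 entries belong to the 47 genes.

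RNA-Seq was performed on NCI-H209, an established cell line from a human small-cell lung cancer (SCLC). In the control group were 3 libraries of untreated NCI-H209 cells. The co-cultured group comprised 2 libraries of NCI-H209 cells that had been kept for 24 h with human brain microvascular endothelial cells (HBMECs) in a Transwell system, in which a porous insert holds both cell types apart in shared medium. Both groups were grown in RPMI-1640 medium with fetal bovine serum, no added agent is named, and the comparison addresses how brain vessel cells act on the tumor cells. The HBMECs were themselves cultured with Nu-serum as well. Whether Nu-serum was present in the co-culture is not stated, and any effect of it was not tested. The labels do not say whether libraries of a group came from separate cultures, so the p-values measure the spread between these libraries, which may be technical.

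Neurons and neuroendocrine cells carry these proteins on their surface. The LRRN, FLRT, SLITRK, LRRTM and LINGO proteins span the membrane and bind through leucine-rich repeats, whereas contactins, NCAM, L1 family and CADM proteins and THY1 bind through immunoglobulin domains. Neurexins on the sending side of a synapse bind neuroligins and LRRTM proteins on the receiving side, FLRT proteins bind latrophilins and the netrin receptors of the UNC5 family, and contactins pair with contactin-associated proteins at the nodes of myelinated axons. SCLC cells are known for a high level of NCAM1, which is used as a marker of this tumor.

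The upstream sequences of members called with a log2 fold change beyond 1 are shown because the genes lie on different chromosomes and moved in both directions. No window was given for THY1, which was also called with a change of that size. RefSeq windows of 250 bases upstream of the transcription start were given for 39 of the 47 members (68 windows, assembly GRCh38.p14), and only bases outside annotated untranslated regions are printed. The capitals mark matches, on either strand, to 1 of 4 short motifs: an E-box core (CAGCTG), a hypoxia-inducible factor core (ACGTG), an AP-1 site (TGANTCA) and a TEAD core (GGAATG). The windows are those of LRRN3 (chr7:111090877-111091005, plus strand), FLRT2 (chr14:85529894-85530143, plus strand, the outermost of 3), CNTNAP4 (chr16:76277151-76277277, plus strand), SLITRK4 (chrX:143636102-143636351, minus strand, the outermost of 3) and LRRN2 (chr1:204685739-204685988, minus strand), 5' to 3' on the strand of the gene.
LRRN3: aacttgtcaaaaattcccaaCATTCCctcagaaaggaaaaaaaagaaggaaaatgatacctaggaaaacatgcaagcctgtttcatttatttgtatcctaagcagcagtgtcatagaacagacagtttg
FLRT2: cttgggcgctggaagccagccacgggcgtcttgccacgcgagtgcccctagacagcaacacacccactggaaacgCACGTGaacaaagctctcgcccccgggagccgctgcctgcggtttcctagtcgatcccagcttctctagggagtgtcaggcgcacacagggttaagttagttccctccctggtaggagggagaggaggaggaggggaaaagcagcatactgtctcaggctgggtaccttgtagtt
CNTNAP4: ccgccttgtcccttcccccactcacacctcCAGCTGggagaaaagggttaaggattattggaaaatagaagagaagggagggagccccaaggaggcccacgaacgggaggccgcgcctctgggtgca
SLITRK4: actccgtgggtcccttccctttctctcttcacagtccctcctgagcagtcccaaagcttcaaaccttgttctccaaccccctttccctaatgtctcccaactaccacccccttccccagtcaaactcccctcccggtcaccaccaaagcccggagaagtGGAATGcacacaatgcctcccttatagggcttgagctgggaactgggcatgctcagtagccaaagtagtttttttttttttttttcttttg
LRRN2: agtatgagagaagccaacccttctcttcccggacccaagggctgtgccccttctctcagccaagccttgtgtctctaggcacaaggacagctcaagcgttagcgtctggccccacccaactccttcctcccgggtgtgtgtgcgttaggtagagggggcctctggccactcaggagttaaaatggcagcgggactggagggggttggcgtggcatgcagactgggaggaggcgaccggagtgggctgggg

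Distances are counted to the RefSeq transcription start at the end of the uncut window. The 129 bases of LRRN3 held a TEAD core as CATTCC 230 bases upstream of it. Those of CNTNAP4 held an E-box core 220 bases upstream and those of SLITRK4 a TEAD core 91 bases upstream. For LRRN3 and CNTNAP4 the printed bases end directly before the gene start given below, which lies upstream of the RefSeq start. Their motifs are therefore closer to that gene start than these distances. In FLRT2 the letters CACGTG matched the ACGTG core on both strands, 175 and 174 bases upstream. The window of LRRN2, which was lower in co-cultured cells, held none of the 4 motifs. Of the window of CNTNAP1, 40 bases lie outside untranslated regions, the rest being annotated to CCR10 on the opposite strand, and it is not printed. Over the whole windows, CAGCTG occurred in 22.1% of the windows of members and 14.0% of all 35116 windows, ACGTG in 17.6% and 18.5%, TGANTCA in 8.82% and 6.57%, and GGAATG in 19.1% and 11.9%. These are matches of letters and no test was made on them.

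Total counts on genes were 17317045 to 19157348 in control and 15457071 and 18918787 after co-culture, so 3 counts, taken as the floor, were worth 0.157 to 0.194 CPM, the TMM-normalized counts scaled to a common library size. The first principal component over the 5 libraries held 64.7% of the variance and the second 18.3%. Unmapped reads were 8.13% to 8.48% in control against 15.9% and 16.8% after co-culture. Of the neuroendocrine markers of the line, INSM1 was at 579 ± 72.0 CPM (SD, n = 3) in control compared with 565 ± 4.79 CPM (SD, n = 2) after co-culture, CHGB was at 99.8 ± 9.79 and 100 ± 1.08 CPM, and CHGA was at 0 in every library but co-cultured replicate 1, which had 1 count. Of 16 endothelial markers, 9 were tested and ESAM rose (3, 4 and 6 counts in control against 21 and 14 after co-culture), PLVAP was at 0 and 5 were at the floor throughout, and their summed CPM was 9.88 to 21.4 in control and 13.2 to 13.6 in co-cultured libraries. Of 11 mural cell and fibroblast markers, 10 were tested and MCAM rose (log2 fold change 0.95), with a summed CPM of 38.9 to 50.1 and 53.9 to 55.4. That sum includes MCAM, at 16.6, 21.7 and 19.9 CPM in control and 38.6 and 36.3 CPM after co-culture. The median log2 fold change of the 10 was -0.79, so the higher sum does not describe the list as a whole. FLT1, TEK, PDGFRB, DCN and LUM had 19 to 39 counts in control replicates 1 and 2, 0 in control replicate 3 and 0 to 6 in the co-cultured libraries. The part of these markers in the results was not tested, and in bulk RNA fewer cells of a kind and less RNA per cell cannot be told apart.

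The filter on low counts kept 39 of the 47 genes, which were tested. In co-cultured cells 14 rose and 2 fell at an adjusted p under 0.05, by the quasi-likelihood test of edgeR, p-values being adjusted by Benjamini-Hochberg over 20360 genes. The 14 are 35.9% of those tested, and over all genes 18.4% were higher. The 2 are 5.13%, and over all genes 15.0% were lower. The median log2 fold change of the 39 was 0.37, and that of all genes tested was -0.03. The filter can keep a gene through the group in which it is high, so these shares describe the genes kept and not all 47. Without co-cultured replicate 1 or 2, of which 1 library then remains, 5 and 6 members were higher, and without control replicate 1 the count of lower members was 7, and without co-cultured replicate 2 it was 1.

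Differentially expressed genes (DEGs) were those whose log2 fold change was beyond 1 in either direction at an unadjusted p under 0.05. By this criterion 7 members were upregulated (17.9%, against 5.44% of all genes) and 2 were downregulated (5.13%, against 5.01%). The downregulated count was 4 without control replicate 1 and 1 without control replicate 2, control replicate 3 or co-cultured replicate 1. Both co-cultured libraries lay above every control library for 19 members (48.7%), where this held for 29.4% of all genes. They lay below every control library for 5 members (12.8%), where this held for 30.0% of all genes. Of the 21 members with leucine-rich repeats, 16 were tested, with 5 higher and 1 lower, and of the 26 others 23 were tested, with 9 higher and 1 lower. The 3 largest rises were those of LRRN3, CNTNAP1 and FLRT2, which belong to different families.

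**Figure D1:**
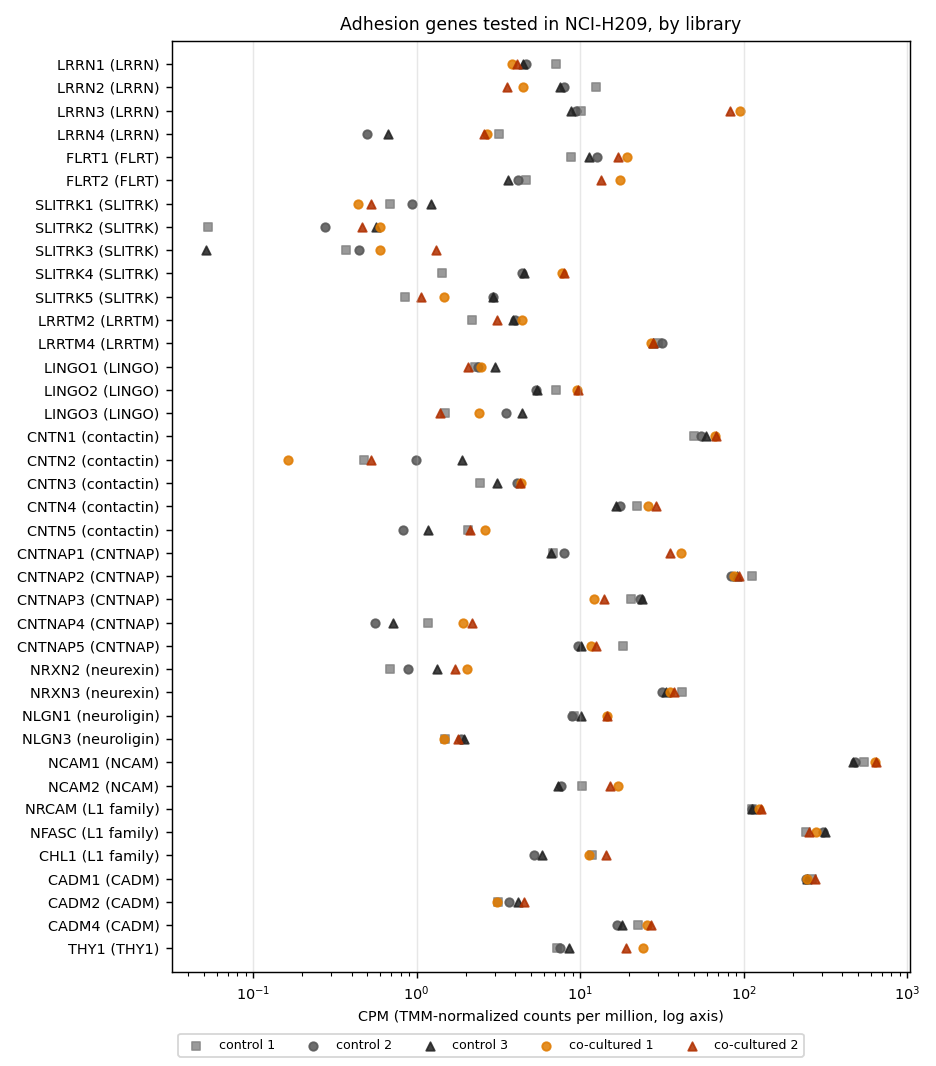
CPM (TMM-normalized counts, log axis) of the 39 adhesion genes tested, 1 row per gene with its family in brackets and 1 mark per library: grey and black marks are the 3 control libraries, orange and red marks the 2 co-cultured libraries. The co-cultured marks of LRRN3, CNTNAP1, FLRT2 and THY1 lie well to the right of their control marks, and control replicate 1 lies away from both other controls for LRRN4, SLITRK4, SLITRK5, LINGO3 and CHL1.

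NCAM1, the neural cell adhesion molecule that also carries polysialic acid, was the most abundant member. Its gene (ENSG00000149294.16) spans chr11:112961247-113278436 on the plus strand. It had 10202, 8725 and 9116 counts in control against 11708 and 9820 after co-culture, a mean of 497 ± 40.0 CPM (SD, n = 3) against one of 644 ± 6.19 CPM (SD, n = 2). Scaled to sequencing depth both co-cultured libraries, at 640 and 649 CPM, were above the controls, at 542, 482 and 467 CPM. The log2 fold change was 0.37 (SE 0.0891, adjusted p = 0.0114). The call was lost without co-cultured replicate 1 (adjusted p = 0.0822) or 2 (adjusted p = 0.107) and with a replicate block (log2 fold change 0.33, adjusted p = 0.114). NCAM2, its relative, had 194, 139 and 144 counts in control against 313 and 232 after co-culture, and rose with a log2 fold change of 0.94 (SE 0.166, adjusted p = 0.00273).

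Per kilobase of exon, NCAM1 in control cells was at 39.0 CPM, followed by CADM1 at 22.7, and by NRCAM at 13.8 and NFASC at 13.5, whose control ranges overlapped. Below these came CADM4 at 8.53, CNTN1 at 7.30, CNTNAP2 at 5.73 and LRRTM4 at 5.53 CPM per kilobase, and neighbours among these overlapped. The level of LRRN3 per kilobase moved from 2.26 to 2.63 CPM in control, the 10th place among the 39 with a range that overlapped those of FLRT1 and CNTNAP3 beside it, to 21.3 to 24.6 CPM in co-cultured cells, the 3rd place with a range that overlapped that of CADM1 above it. CNTNAP1 moved from 1.09 to 1.32 CPM per kilobase, the 20th place and overlapping with its neighbours, to 5.88 to 6.82, the 8th place. The CPM of all members summed to 1528 to 1595 in control and to 1873 to 1880 in co-cultured libraries. NCAM1, NFASC and CADM1 together held 65.5% to 67.5% of that sum in control and 61.9% to 62.5% in co-cultured libraries.

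The LRRN genes encode transmembrane proteins with leucine-rich repeats, an immunoglobulin domain and a fibronectin domain, and of their 4 members LRRN3 rose, LRRN2 fell and the others were not called. LRRN3 (ENSG00000173114.12, chr7:111091006-111125454, plus strand) had 192, 170 and 171 counts in control against 1742 and 1251 after co-culture. In CPM this was 10.2, 9.40 and 8.76 in control and 95.2 and 82.6 in co-cultured cells, far apart and with little spread within a group. Its log2 fold change was 3.23 (SE 0.106, adjusted p = 2.77e-06), a 9.41-fold rise and the largest among the members, and it stayed within 3.14 to 3.34 when any single library was left out. LRRN2 (ENSG00000170382.11, chr1:204617170-204685733, minus strand) had 235, 145 and 148 counts in control against 82 and 54 after co-culture, with every co-cultured library below the controls. It fell by 1.21 on the log2 scale (SE 0.256, adjusted p = 0.00657), and its call was lost without co-cultured replicate 2 (adjusted p = 0.0779). LRRN1 had 134, 84 and 87 counts in control against 70 and 62 after co-culture (log2 fold change -0.45, adjusted p = 0.191). LRRN4 had 60, 9 and 13 counts in control against 49 and 39 after co-culture, so that control replicate 1 lay with the co-cultured cells (log2 fold change 0.85, adjusted p = 0.320).

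FLRT proteins act both as adhesion molecules and as guidance ligands, and both tested members rose. FLRT2 (ENSG00000185070.10, chr14:85530144-85654426, plus strand) had 88, 75 and 71 counts in control against 320 and 205 after co-culture. Its CPM was 4.15 ± 0.522 (SD, n = 3) in control compared with 15.5 ± 2.79 (SD, n = 2) after co-culture, without overlap. The log2 fold change was 1.90 (SE 0.175, adjusted p = 0.000115). FLRT1 had 8.83, 12.7 and 11.4 CPM in control and 19.5 and 17.0 CPM in co-cultured libraries, with a log2 fold change of 0.74 (adjusted p = 0.00764) that was not called without co-cultured replicate 1 (adjusted p = 0.100). FLRT3, the remaining member of the family, had 5 to 16 counts per library and was not tested.

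SLITRK proteins bind presynaptic receptor tyrosine phosphatases and help form synapses. SLITRK4 (ENSG00000179542.15, chrX:143622790-143635777, minus strand) had 27, 80 and 89 counts in control against 141 and 121 after co-culture. The co-cultured libraries were above the controls, and control replicate 1 was far below the other two. Its log2 fold change was 1.17 (SE 0.368, adjusted p = 0.0359). The call was lost with upper-quartile normalization (adjusted p = 0.0513) and without co-cultured replicate 1 (adjusted p = 0.158) or 2 (adjusted p = 0.162). SLITRK3 met the criterion for an upregulated DEG at 7, 8 and 1 counts in control against 11 and 20 after co-culture, but its adjusted p was 0.0736 (log2 fold change 1.70, SE 0.655). SLITRK1, SLITRK2 and SLITRK5 were at most at 57 counts in a library, with log2 fold changes of -0.98, 0.82 and -0.80 and adjusted p of 0.113, 0.395 and 0.246.

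LINGO1 is known as a part of the Nogo receptor complex, which limits axon growth, and its relative LINGO2 was the LINGO gene that passed the test. LINGO2 had 7.12, 5.36 and 5.48 CPM in control and 9.56 and 9.71 CPM in co-cultured libraries, all co-cultured values being above the controls. Its log2 fold change was 0.69 (SE 0.173, adjusted p = 0.0146). The call was lost without control replicate 2 (adjusted p = 0.0529), without co-cultured replicate 1 (adjusted p = 0.0908) or 2 (adjusted p = 0.0966) and with a replicate block (adjusted p = 0.0541). LINGO1 had 43, 43 and 59 counts in control against 45 and 31 after co-culture (log2 fold change -0.18, adjusted p = 0.617), and LINGO3 had 28, 64 and 86 against 44 and 21 (log2 fold change -0.71, adjusted p = 0.246). The groups overlapped for both. Of the LRRTM genes, which encode partners of neurexins, LRRTM4 was at 27.9 to 31.8 CPM in control and 27.2 and 27.8 CPM in co-cultured libraries (log2 fold change -0.12, adjusted p = 0.384). LRRTM2 was at 2.18 to 3.98 and at 3.10 and 4.43 CPM (log2 fold change 0.18, adjusted p = 0.680).

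Contactins are immunoglobulin proteins held to the membrane by a lipid anchor, and contactin-associated proteins span the membrane beside them. CNTNAP1 (ENSG00000108797.11, chr17:42682613-42699814, plus strand), known as Caspr, is the partner of contactin 1 at the paranodes of axons. It had 129, 144 and 129 counts in control against 754 and 538 after co-culture. From 7.14 ± 0.722 CPM (SD, n = 3) in control it rose to 38.4 ± 4.01 CPM (SD, n = 2), with a log2 fold change of 2.43 (SE 0.127, adjusted p = 1.75e-05). Leaving out each library in turn, the log2 fold change ran from 2.32 to 2.53. CNTN1 itself rose less, from 50.0, 55.0 and 59.1 CPM to 67.1 and 68.2 CPM (log2 fold change 0.31, adjusted p = 0.0276). NFASC, whose glial form joins this pair at the paranode, was at 240, 307 and 314 CPM in control and 276 and 253 CPM in co-cultured cells (log2 fold change -0.12, adjusted p = 0.482).

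The call of CNTN1 was lost with upper-quartile normalization (adjusted p = 0.0926) and without control replicate 2 (adjusted p = 0.0663), co-cultured replicate 1 (adjusted p = 0.140) or co-cultured replicate 2 (adjusted p = 0.164). CNTN4, a contactin of the developing olfactory system, had 421, 319 and 325 counts in control against 480 and 443 after co-culture. It rose with a log2 fold change of 0.55 (SE 0.140, adjusted p = 0.0147), which was not called without co-cultured replicate 1 (adjusted p = 0.0613) or 2 (adjusted p = 0.139). CNTN3 and CNTN5 had both co-cultured libraries above the controls, with log2 fold changes of 0.43 and 0.80 and adjusted p of 0.206 and 0.126. CNTN2, also called TAG-1, met the criterion for a downregulated DEG at 9, 18 and 37 counts in control against 3 and 8 after co-culture. The controls spanned a wide range, and its adjusted p was 0.0859 (log2 fold change -1.74, SE 0.703). Of the reads on the exons of CNTN2, 88.8% to 98.0% lay on the opposite strand.

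CNTNAP4 (ENSG00000152910.18, chr16:76277278-76559238, plus strand) was found at low counts, 22, 10 and 14 in control against 35 and 33 after co-culture. The groups did not overlap, and the log2 fold change was 1.32 (SE 0.354, adjusted p = 0.0193). This call was lost without control replicate 2 (adjusted p = 0.0569), control replicate 3 (adjusted p = 0.0524), co-cultured replicate 1 (adjusted p = 0.0939) or co-cultured replicate 2 (adjusted p = 0.131). CNTNAP3 was the member of the family that fell, with 388, 419 and 464 counts in control against 223 and 214 after co-culture (log2 fold change -0.78, SE 0.125, adjusted p = 0.00174). It has near-identical copies in the genome whose reads a count of uniquely mapped reads can lose, so its level is uncertain. CNTNAP2 was at 83.5 to 112 CPM in control and at 86.8 and 93.8 CPM in co-cultured libraries (log2 fold change -0.08, adjusted p = 0.638), and that of its patch entry was 0.08 (adjusted p = 0.680). CNTNAP5 was at 9.73 to 18.2 CPM and at 11.7 and 12.5 CPM (log2 fold change -0.07, adjusted p = 0.854).

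Neurexins and neuroligins face each other across the synapse. NLGN1 had 9.20, 8.96 and 10.2 CPM in control and 14.6 CPM in each co-cultured library, and the groups were apart. The log2 fold change was 0.62 (SE 0.128, adjusted p = 0.00567), which was not called without co-cultured replicate 1 (adjusted p = 0.0574) or 2 (adjusted p = 0.0533). NRXN2 had 13, 16 and 26 counts in control against 37 and 26 after co-culture (log2 fold change 0.94, SE 0.342, adjusted p = 0.0604). NRXN2 was called with a replicate block (log2 fold change 1.25, adjusted p = 0.0409) and without control replicate 3 (adjusted p = 0.0341). NRXN3, the more abundant neurexin, was at 31.6 to 42.2 CPM in control and 35.3 and 37.7 CPM in co-cultured cells (log2 fold change 0.02, adjusted p = 0.905). NLGN3 was at 1.49 to 1.95 and at 1.48 and 1.78 CPM (log2 fold change -0.13, adjusted p = 0.758).

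THY1 (ENSG00000154096.13, chr11:119417378-119424985, minus strand), which encodes the small lipid-anchored protein CD90, rose. It had 135, 136 and 166 counts in control against 442 and 290 after co-culture, or 7.73 ± 0.686 CPM (SD, n = 3) against 21.7 ± 3.54 CPM (SD, n = 2). The resulting log2 fold change was 1.49 (SE 0.145, adjusted p = 0.000158), and it stayed between 1.32 and 1.65 when each library was left out. CADM4 had 22.5, 16.9 and 18.1 CPM in control and 25.5 and 27.1 CPM in co-cultured libraries (log2 fold change 0.46, adjusted p = 0.0282). The call of CADM4 was lost when any library but control replicate 1 was left out (adjusted p from 0.0750 to 0.183) and with a replicate block (adjusted p = 0.0784). CADM1, a synaptic adhesion molecule first named as a tumor suppressor of lung cancer, was at 241 to 263 CPM in control and at 243 and 273 CPM in co-cultured cells, with overlap (log2 fold change 0.05, adjusted p = 0.701). The log2 fold change of CADM2 was 0.06 (adjusted p = 0.861).

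The L1 family proteins bind ankyrins inside the cell, and none of the 3 passed the test. NRCAM had 112, 113 and 113 CPM in control and 124 and 127 CPM in co-cultured libraries, a small shift without overlap (log2 fold change 0.15, SE 0.0710, adjusted p = 0.128). CHL1 had 11.9, 5.25 and 5.84 CPM in control and 11.3 and 14.5 CPM in co-cultured libraries (log2 fold change 0.75, SE 0.310, adjusted p = 0.0929). Its control replicate 1 lay within the co-cultured range. Of the 47 members, 8 were not tested. SLITRK6, LRRTM3, LINGO4 and NLGN2 were at 0 in all 5 libraries, LRRTM1 and CNTN6 had at most 1 count, CADM3 at most 4 and FLRT3 at most 16. With 3 counts as the limit that a count of 0 allows, levels under 0.157 to 0.194 CPM were not detectable at this depth, a limit that covers counting error only. NLGN2 was at 0 on both strands, and reads that map equally well to more than 1 sequence were not counted.

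**Figure D2:**
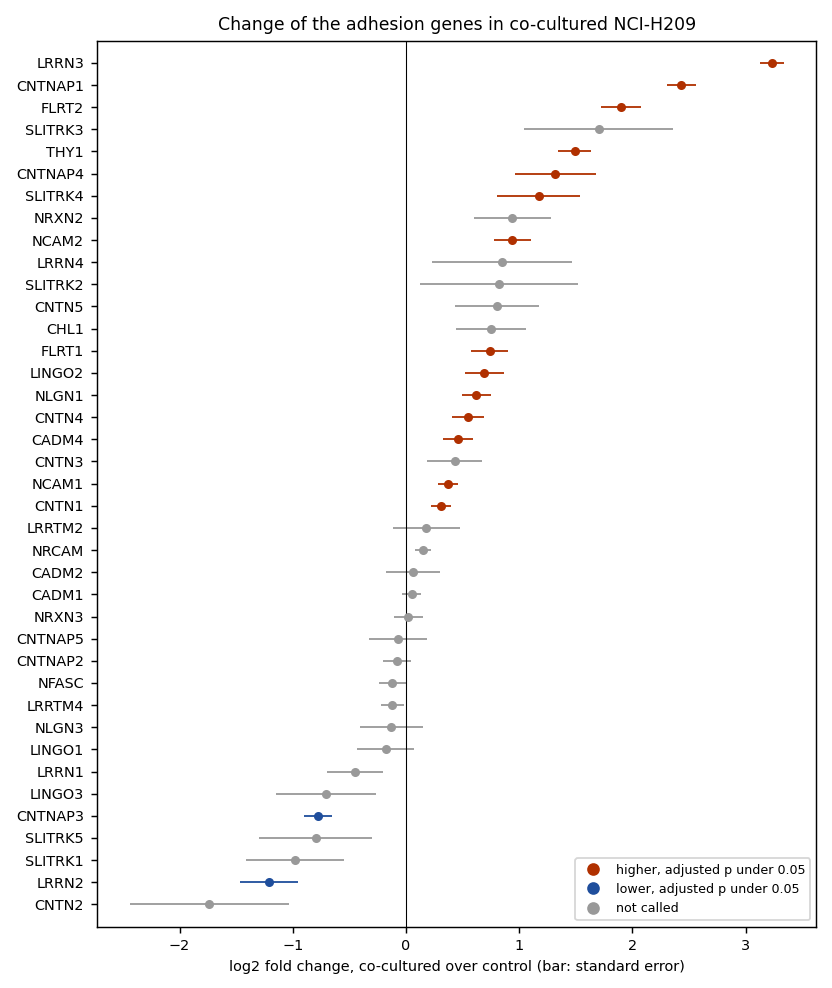
Change after co-culture, as the log2 fold change over control, of the 39 adhesion genes tested, ordered by size, with the standard error as a bar. Red points are the 14 genes higher and blue points the 2 genes lower at an adjusted p under 0.05, grey points were not called. LRRN3 (3.23) and CNTNAP1 (2.43) stand at the top, and CNTN2 (-1.74), at the bottom, has the widest error.

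Control replicate 1 stood apart for several members. For LRRN4, SLITRK4, SLITRK5, LINGO3 and CHL1, 5 of the 39 tested (12.8%), it differed from the mean of both other controls by more than 1 in log2(CPM + 0.5), where this was so for 1.66% of all genes. Control replicate 2 differed so from the mean of its own group's other libraries for LRRN4, where that mean holds the high value of replicate 1, and control replicate 3 for none. With that library left out, 19 members were higher and 7 lower, while the shares over all genes also grew, to 26.5% and 23.0% of 19974 genes. The call of 10 members differed. Higher without it were LRRN4 (log2 fold change 2.16, adjusted p = 6.83e-05), CHL1 (1.21, adjusted p = 1.53e-05), CNTN5 (1.24, adjusted p = 0.00418), SLITRK3 (1.94, adjusted p = 0.0236) and NRCAM (0.15, adjusted p = 0.0367). Lower without it were SLITRK1 (-1.17, adjusted p = 0.0346), SLITRK5 (-1.18, adjusted p = 0.00271), LINGO3 (-1.04, adjusted p = 0.00521), CNTN2 (-2.11, adjusted p = 0.00364) and NFASC (-0.23, adjusted p = 0.00442). LRRN3, CNTNAP1, FLRT2 and THY1 were called either way, at 3.30, 2.41, 2.01 and 1.44 without it.

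**Figure D3:**
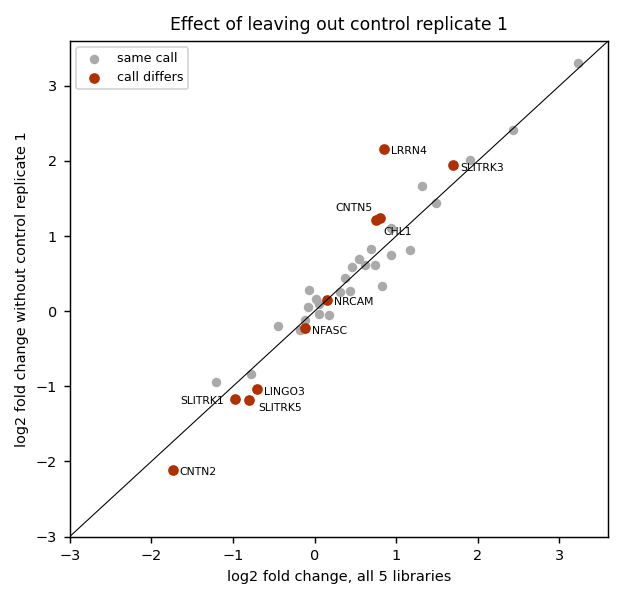
Log2 fold change of the 39 adhesion genes tested with all 5 libraries (horizontal axis) and without control replicate 1 (vertical axis), the line marking equal values. The 10 genes whose call differs are red and named, and LRRN4 lies farthest from the line (0.85 and 2.16).

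Several members with leucine-rich repeats lie inside a larger gene on the opposite strand, so that the strand of a read decides which gene it counts for. In the libraries 92.3% to 93.1% of the reads on genes were on the expected strand. LRRN3 lies within IMMP2L, which had 307, 330 and 373 counts in control against 269 and 221 after co-culture (log2 fold change -0.29, adjusted p = 0.0937). The reads opposite to LRRN3 numbered 165, 186 and 200 in control against 156 and 111 after co-culture, so the rise was on the strand of LRRN3. FLRT1 lies within MACROD1, which fell by 0.64 on the log2 scale (adjusted p = 0.00406). LRRTM2 lies within CTNNA1, alpha-catenin, which rose (log2 fold change 0.73, adjusted p = 0.000186). With 72.8% to 82.3% of the reads on LRRTM2 on the strand of CTNNA1, LRRTM2 was called without regard to strand (log2 fold change 0.45, adjusted p = 0.0291) but not on its own strand. LRRN1 lies within SUMF1 (log2 fold change -0.19, adjusted p = 0.137) and had 46.4% to 56.6% of its reads on the opposite strand. FLRT3, LRRTM1 and LRRTM3 lie within MACROD2, CTNNA2 and CTNNA3, whose log2 fold changes were 0.21, 0.13 and -0.13.

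**Figure D4:**
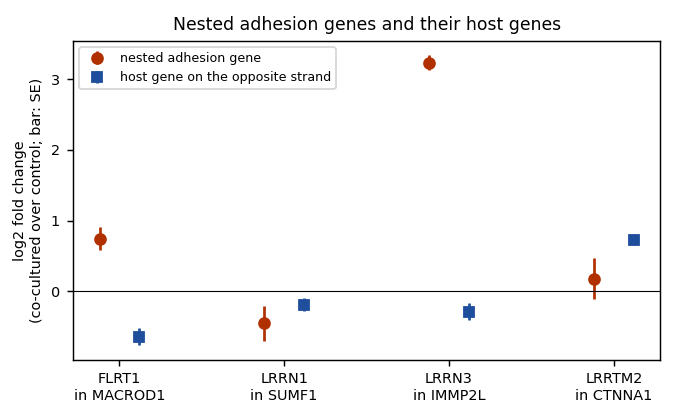
Log2 fold change, with the standard error as a bar, of the 4 tested adhesion genes that lie within a tested host gene on the opposite strand (red) and of that host (blue). LRRN3 (3.23) and FLRT1 (0.74) lie above 0 with their hosts below it, while for LRRTM2 the host CTNNA1 (0.73) is the higher of the pair.

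Reads on the other strand are given for CNTNAP1 and THY1, which were picked after their values were seen. Opposite to CNTNAP1, where CCR10 and an antisense RNA overlap its exons, there were 41, 63 and 47 reads in control against 30 and 9 after co-culture. Opposite to THY1 there were 16, 12 and 14 reads in control and 3 in each co-cultured library. For both genes the reads on the gene's own strand rose while those on the other strand were fewer in both co-cultured libraries than in any control. These opposite-strand counts are small and no test was made on them. On the expected strand, both co-cultured libraries lay below every control for 30.0% of all genes. The share for opposite strands was not computed.

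Partners of these proteins were read from 4 lists, chosen by role: extracellular ligands and receptors, other synaptic adhesion molecules, intracellular scaffolds and linkers, and processing enzymes. Of their 117 genes 105 were tested, 32 rose (30.5%) and 11 fell (10.5%), and the median log2 fold change was 0.15. As with the members, 18.4% of all genes were higher and 15.0% lower. The list of extracellular partners had 13 higher and 3 lower of 33 tested, other synaptic adhesion molecules 7 and 2 of 22, scaffolds and linkers 10 and 5 of 40, and processing enzymes 2 and 1 of 10. Over the 4 lists 15 and 18 genes were higher without co-cultured replicate 1 and 2, and 7 and 6 were lower, while 18 were lower without control replicate 1.

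The list of extracellular partners holds NGFR, TNFRSF19 and RTN4R, known from the Nogo receptor complex that LINGO1 joins, and 2 relatives of RTN4R, chosen here for that role after their values were seen. LINGO1 and TNFRSF19 were not called (log2 fold change of TNFRSF19 0.76, SE 0.266, adjusted p = 0.0549, called without control replicate 1 at an adjusted p of 0.0308), and the rest rose at low levels. NGFR, the p75 neurotrophin receptor, had 12, 9 and 14 counts in control against 43 and 43 after co-culture (log2 fold change 2.05, SE 0.305, adjusted p = 0.00120). RTN4R, the Nogo receptor, had 29, 28 and 18 counts in control against 79 and 49 after co-culture (log2 fold change 1.50, adjusted p = 0.00421). Its relatives RTN4RL1 and RTN4RL2 had log2 fold changes of 1.92 (adjusted p = 0.00780) and 1.38 (adjusted p = 0.00417). Without co-cultured replicate 1 the adjusted p was 0.0692 for RTN4R, 0.132 for RTN4RL1 and 0.0634 for RTN4RL2, and with counts without regard to strand that of RTN4RL2 was 0.181 (log2 fold change 0.54).

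Of the partners of FLRT proteins, the netrin receptor gene UNC5B had 1545, 1310 and 1442 counts in control against 3973 and 3077 after co-culture (log2 fold change 1.47, SE 0.0835, adjusted p = 2.08e-05). UNC5A and UNC5D were not called (log2 fold change -0.25 each, adjusted p = 0.358 and 0.120), and UNC5C had at most 2 counts. The latrophilin gene ADGRL1 rose (log2 fold change 0.45, adjusted p = 0.00265), and ADGRL2 and ADGRL3 were not called (0.42 and 0.41, adjusted p = 0.115 and 0.191). PTPRZ1, a receptor phosphatase that binds contactins, fell from 57.3, 66.6 and 58.4 CPM in control to 11.8 and 20.9 CPM (log2 fold change -1.90, adjusted p = 0.000217). MDGA1, which blocks the binding of neuroligins to neurexins, had 19.4, 34.2 and 32.3 CPM in control and 9.51 and 8.39 CPM in co-cultured cells (log2 fold change -1.67, adjusted p = 0.000961). CLSTN2, a calsyntenin of the synapse, rose (log2 fold change 1.52, adjusted p = 0.000203). The heparan sulfate proteoglycan genes GPC6 and GPC4 moved in opposite directions, with log2 fold changes of 1.08 (adjusted p = 0.00208) and -1.33 (adjusted p = 0.0142). The call of GPC4 was lost without co-cultured replicate 1 or 2 (adjusted p = 0.105 each).

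Among other synaptic adhesion molecules, netrin-G1 and its ligand rose together. NTNG1 had 106, 98 and 81 counts in control against 407 and 420 after co-culture (log2 fold change 2.30, SE 0.165, adjusted p = 4.34e-05). LRRC4C, the netrin-G1 ligand, had 55, 29 and 33 counts in control against 104 and 110 after co-culture (log2 fold change 1.64, SE 0.277, adjusted p = 0.00226). NTNG2, the second netrin-G, fell by 1.05 on the log2 scale (adjusted p = 0.00921), which was not called without co-cultured replicate 1 (adjusted p = 0.104) or 2 (adjusted p = 0.0656). ALCAM, an immunoglobulin adhesion molecule of axons and leukocytes, rose from 145 ± 17.5 CPM (SD, n = 3) in control to 311 ± 8.84 CPM (SD, n = 2), and its log2 fold change was 1.10 (adjusted p = 0.000119). Of the scaffolds, the log2 fold change of HOMER1 was 1.41 (adjusted p = 0.000434) and that of MPP2 1.12 (adjusted p = 0.00406), the latter not called without co-cultured replicate 1 (adjusted p = 0.0696). No tested processing enzyme moved by more than 1 on the log2 scale with a call, and neither did any scaffold other than HOMER1 and MPP2. Of the 5 scaffolds that fell, the ankyrin gene ANK2 went from a mean of 1089 to 568 CPM (log2 fold change -0.94, adjusted p = 0.000993). SHANK2 went from 233 to 124 CPM (log2 fold change -0.92, adjusted p = 0.000158). The ankyrin gene ANK3 was among the 10 that rose (log2 fold change 0.47, adjusted p = 0.00402).

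**Figure D5:**
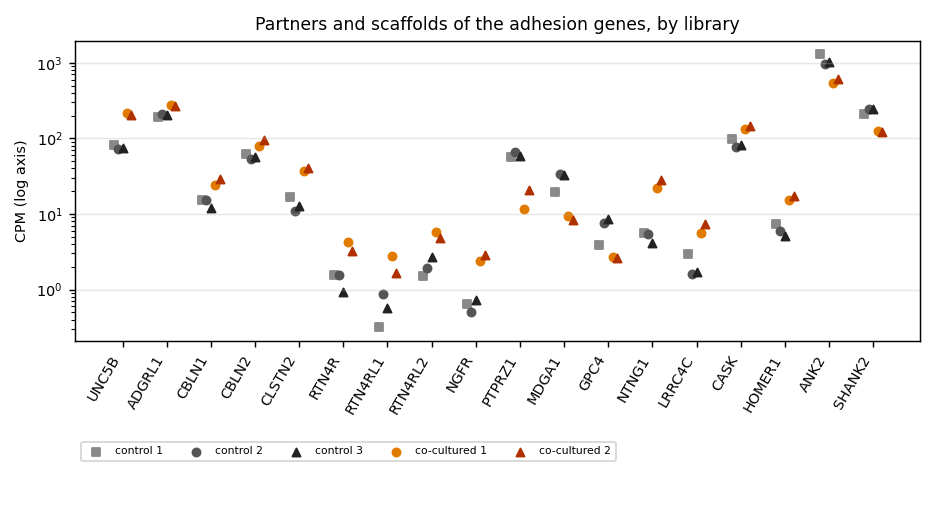
CPM (log axis) of 18 partners and scaffolds of the adhesion genes in each of the 5 libraries, grey and black marks for control and orange and red marks for co-cultured cells. Both co-cultured libraries of NTNG1, NGFR and UNC5B lie above every control, and PTPRZ1, MDGA1 and SHANK2 lie lower.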

How the data were processed

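RNA-Seq libraries of NCI-H209 cells, 3 control and 2 co-cultured, were compared. Per the labels, rRNA-depleted RNA was made into directional libraries, and the submitters' processing notes name CASAVA 1.8, STAR 2.6.1b and DESeq2 with genome build GRCh38. The authors deposited raw read counts per gene for each library, without regard to strand and for each strand. The counts of the expected strand were used, which hold 92.3% to 93.1% of the reads assigned by strand, and the 4 summary entries that name no gene (66.4% to 69.3% of reads) were left out. The deposited table of the comparison holds the authors' fold changes and p-values, of which none was used, and gave gene names only.

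Genes were filtered with filterByExpr, normalized by TMM and tested with edgeR 4.0.16 (glmQLFit and glmQLFTest, R 4.3.3, limma 3.58.1), with Benjamini-Hochberg adjustment over 20360 genes. The biological coefficient of variation was 10.2%. Standard errors were obtained from the log2 fold change and the F statistic. CPM are counts scaled to a common library size after TMM, and levels between genes are given per kilobase of exon (GENCODE release 29). Replicate libraries were further apart than counting noise allows (chi-square per degree of freedom 6.34 to 18.1 in control and 4.59 in co-cultured libraries). The steps were tested on simulated counts. As alternatives, DESeq2 1.42.0, upper-quartile or median-ratio scaling, weaker (1 count anywhere) or stricter (10 counts everywhere) filtering, unstranded counts, leaving out each library and a replicate block were tried.

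The members, the partner lists and the marker lists were chosen with earlier results of these data known. The result of 1 gene of the marker lists is not reported here. Full values are given for members with an adjusted p under 0.05 and an absolute log2 fold change above 1 and for the most abundant member, values for the other tested members, and highest counts for the rest. Partners past the same thresholds are named, some with their log2 fold change and adjusted p alone. The other UNC5 genes, the latrophilin genes and the scaffolds ANK2, ANK3 and SHANK2 were added after their values were seen. The markers ESAM and MCAM, the 5 markers absent from control replicate 3 and the antisense reads were named after their values were seen. Upstream windows are from RefSeq (GRCh38.p14). Plots were drawn with matplotlib 3.10.9.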

Additional observations from a re-analysis of the deposited data

Results flagged for a closer look

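Reads on the opposite strand of CNTN4, a column that the comparisons of the report do not use, were more frequent in the co-cultured libraries than in the controls, with 17, 9 and 15 reads in control against 75 and 30 after co-culture. The mean was 0.723 CPM in control and 3.04 CPM in co-cultured cells. CNTN4-AS1 and CNTN4 overlap in their exons on opposite strands, and which transcript gave these reads was not tested.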

How the results depend on the processing

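DESeq2 called 14 members higher and 2 lower, and the count of higher members was 12 to 19 over the alternatives that kept all libraries. Leaving out 1 library at a time gave 5 to 19 higher members and 1 to 7 lower members. The low end for higher members came without co-cultured replicate 1 (5) or 2 (6), where the single library left is assumed to vary like the controls. Upregulated DEGs among members were 6 to 10 over all alternatives. Downregulated DEGs, 2 with all libraries, were 1 with at least 10 counts in every library, 0 with unstranded counts, 1 with the replicate block and 1 to 4 with a library left out. Of the partner and scaffold genes, 15 to 44 were higher and 6 to 18 lower with a library left out. No direction reversed among the values that had a call, and the cause of these changes was not tested.

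LRRN3, FLRT2, CNTNAP1, CNTNAP3, NCAM2 and THY1 were called under each of the 12 alternatives. With at least 1 count in any library, LRRN4 (adjusted p = 0.0250), SLITRK3 (0.00894), CNTN2 (0.00345), CNTN5 (0.0477), NRXN2 (0.0340) and CHL1 (0.000172) were called as well. Upper-quartile normalization moved the median of all genes from -0.03 to -0.11. The labels number the replicates without saying that a number marks a shared culture. Deviations of same-numbered libraries from their group means correlated at -0.114 and -0.067. With 2 co-cultured libraries these deviations mirror each other, so the values cannot decide whether same-numbered libraries shared a culture. Under the replicate block 12 members were higher and 2 lower. Low counts limit CNTNAP4, CNTN2, NRXN2 and the SLITRK genes other than SLITRK4.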
